A study of Bos taurus with 36 samples.

Results

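The resting liver of 8 dairy cows was described from the 8 arrays taken at hour -22, before the udder was challenged, of 36 arrays in all. The arrays were chosen by their title, which gives tissue and hour, so no measured value decided which of them were used. Each of the 8 cows gave 1 liver biopsy and 1 array at this hour, and all were untreated. The later arrays of the study were not used, and nothing here compares one hour with another. The cows were healthy, high-yielding Holstein-Friesian primiparous animals that had calved 9 to 12 weeks earlier, with low somatic cell counts and no mastitis pathogen in the milk. They were fitted with jugular catheters, and the paper does not say whether this was before the biopsies described here. In the study each cow later received 200 µg of E. coli LPS into the right front gland of the udder and 0.9% NaCl into the left front gland, so the samples described here precede both infusions. RNA was extracted with Trizol, labelled from the poly(A) tail and hybridised to the Affymetrix Bovine Genome Array. Because every cow had a single array, cow, biopsy and array cannot be told apart, and the spread given below contains all of them. The cows are numbered 1 to 8 by their biological replicate.

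The liver makes most of the proteins of blood plasma, among them albumin, transport proteins, clotting factors, complement and protease inhibitors. Its hepatocytes also make glucose, which in ruminants is needed for milk lactose, and they build and burn fat, make bile acids and urea, and detoxify foreign compounds. Acute phase proteins are plasma proteins whose output by the liver changes with inflammation, driven mainly by interleukin 6, interleukin 1 and glucocorticoids. In cattle haptoglobin and serum amyloid A are known as the strongest of them, and both are scarce in the plasma of most healthy animals.

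The array held 24128 probe sets per cow, and the deposited values are GCRMA log2 intensities. Medians over all probe sets lay between 4.15 in cow 7 and 4.37 in cow 3, and pairs of arrays correlated with r between 0.980 and 0.994 across probe sets. The array of cow 7 stood apart. All 18 hybridisation spike probe sets were highest on it, with a mean of 13.39, against 11.01 to 11.66 on the other arrays, while the median of the bright probe sets (mean of at least 5) was lowest at 7.78, against 7.94 to 8.02. The 24 labelling spike probe sets averaged 8.33 in cow 7, 7.72 in cow 2 and 6.23 to 6.95 in the other cows. The difference between the 3' and 5' probe sets of GAPDH, a sign of RNA length, was 0.46 in cow 7, 0.43 in cow 8 and 0.42 in cow 2, against -0.05 to 0.24 in the others. Its part in any single result was not tested.

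A log2 value of 5 was taken as the level above which a probe set carried signal. On average 45.8% ± 0.732 (SD, n = 8) of the probe sets exceeded it. The share was 44.0% in cow 7 and 45.8 to 46.4% in the other cows, and without cow 7 it averaged 46.0% ± 0.233 (SD, n = 7). Above this level in all 8 cows were 9939 probe sets (41.2%), and 12027 (49.8%) passed it in none. The remaining 2162 (8.96%) passed in some cows only. Of the 505 that passed in 7 cows, 254 were missing in cow 7 alone.

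**Figure D1:**
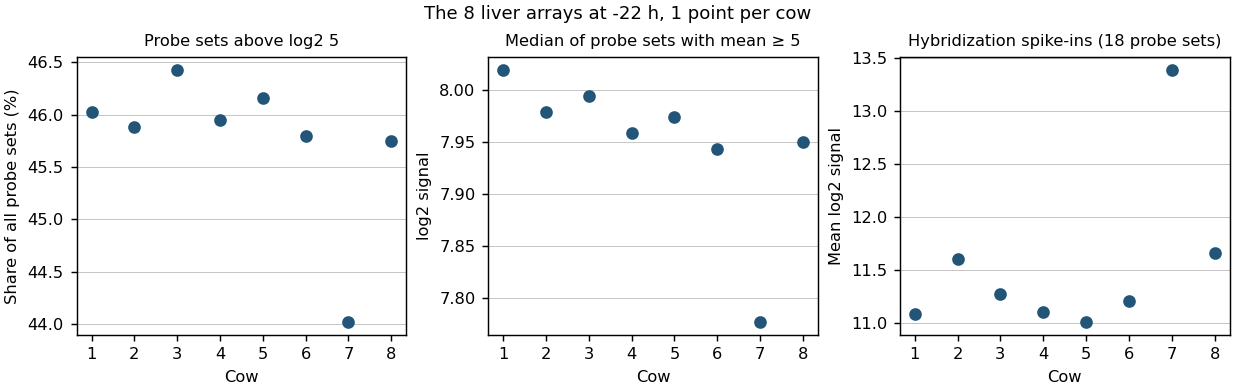
The share of probe sets above log2 5 (%), the median log2 signal of the bright probe sets (mean of at least 5) and the mean log2 signal of the hybridisation spikes, with 1 point per cow and axes that do not start at 0. Cow 7 had the lowest share (44.0%, against 45.8 to 46.4% in the other cows) and the highest mean of the 18 hybridisation spikes (13.39, against 11.01 to 11.66).

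Of the probe sets, 13318 named a single gene, and with controls left out these gave 9155 genes, each read from its brightest probe set. For 5443 genes (59.5%) the value was above 5 in all 8 cows and for 2951 (32.2%) in none. A mean of at least 5 was reached by 5859 genes, of at least 10 by 1451 (15.8%), of at least 12 by 511 (5.58%) and of at least 15 by only 26 (0.284%). Probe sets bind their targets with different strength, so the order of genes below is an order of log2 signal and not of transcript number.

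Plasma proteins led the resting liver. Albumin (ALB), the main protein of plasma, had the highest mean of all genes, 16.14 ± 0.11 log2 (SD, n = 8), followed by the fibrinogen gamma chain (FGG) with 15.86 ± 0.20, complement C3 with 15.83 ± 0.17, fetuin-A (AHSG) with 15.68 ± 0.23 and apolipoprotein H (APOH) with 15.66 ± 0.12. Transferrin (TF), the iron carrier, followed with 15.58 ± 0.06. ALB lay above FGG by more than the SD of either, whereas the neighbours in the order from FGG to TF differed by less than the larger SD of each pair. Alpha-1-acid glycoprotein (ORM1), an acute phase protein, was seventh with 15.56 ± 0.34. Its values were 15.95 in cow 5 at the top and 14.85 in cow 7 at the bottom, with a median of 15.62. Its SD was 2.37 times the spread usual for its level, and 1.67 times without cow 7.

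The rest of the 20 brightest genes were plasma proteins and genes of the cell interior. Plasma proteins were transthyretin (TTR, 15.38) and the vitamin D binding protein (GC, 15.31), both carriers, alpha-1-antitrypsin (SERPINA1, 15.28), a protease inhibitor, apolipoprotein A-II (APOA2, 15.28), vitronectin (VTN, 15.22) and complement factor B (CFB, 15.14). SERPINA3-7, a bovine serpin of the antichymotrypsin family, averaged 15.19 ± 0.40. It was the most variable gene of the 20, with 14.67 in cow 8, a median of 15.29 and 15.77 in cow 1. Intracellular genes were the glutathione transferase GSTA2 (15.42), the fatty acid binding protein FABP1 (15.22), TPT1 (15.39), which codes for a growth-related protein found in most cells, and the translation elongation factor EEF1A1 (15.19). LOC511240 (15.29) is listed in RefSeq with the synonym HP-25. CDK5R1, annotated as an activator subunit of a kinase known from brain, had a mean of 15.44. Its other probe sets averaged 14.83, 14.16 and 3.00, so the probe sets under this name did not measure the same level. The name given by the annotation may be wrong for the bright probe sets, which was not tested.

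In 17 of these 20 genes cow 7 was the lowest. After the median of each array was set to a common value it was lowest in 7 of 20. Without cow 7 the SD of ALB was 0.03, of FGG 0.06 and of C3 0.07. It was 0.05 to 0.08 for SERPINA1, CFB, TPT1, APOA2, CDK5R1 and EEF1A1.

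**Figure D2:**
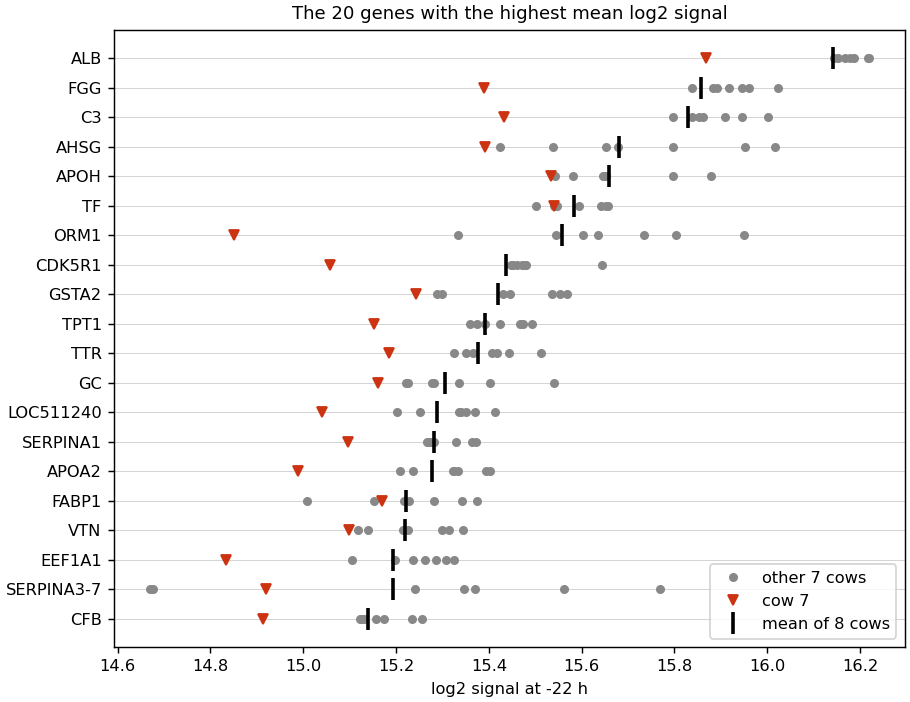
Log2 signal of the 20 genes with the highest mean at hour -22, with a point for each cow and the mean as a line. ALB led with 16.14, and the widest spreads were those of SERPINA3-7 (SD 0.40) and ORM1 (SD 0.34).

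The biopsies carried the marks of hepatocytes in every cow. All 10 hepatocyte markers, such as ALB, TTR, the urea cycle enzyme CPS1 and the nuclear receptor HNF4A, exceeded 5 in all cows, and their mean lay between 13.69 and 13.96. Of 14 markers of Kupffer cells, the macrophages of the liver, 12 reached a mean of 5. Endothelial cells followed with 12 of 16 markers and stellate cells with 10 of 16. Of all genes 64.0% reached it, so the counts of endothelial and stellate cell markers were near that share. Few blood cell markers carried signal. None of 8 erythroid markers reached a mean of 5, and the average over them was 2.31 to 2.44 per cow, with 2.22 to 2.36 for the globin gene HBA. Of 14 neutrophil markers 3 reached it, of 17 T and natural killer cell markers 4, and of 8 B and plasma cell markers 2. The B cell gene IGHM was bright, with a mean of 10.17. Skin markers did not reach it in any case (0 of 7), and bile duct cells had 4 of 11.

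Markers of cells other than hepatocytes differed between the biopsies. The mean over the Kupffer cell markers was 8.16 in cow 1 at the low end and 8.99 in cow 4 at the high end. Cow 1 was lowest in 8 of the 12 Kupffer markers and in 7 of the 10 stellate cell markers with a mean of at least 5 (66.7% and 70.0%, beside 13.5% of all genes). Cow 3 was lowest in 9 of the 12 endothelial markers with such a mean (75.0%, beside 9.66% of all genes). Muscle markers averaged 6.66 in cow 4, against 4.39 at the low end. In bulk tissue fewer cells of a type and less RNA per cell cannot be told apart.

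The spread between cows was read against the spread usual for a gene's level. For the 5859 genes with a mean of at least 5 the median SD over the 8 cows was 0.264, with 0.142 to 0.537 between the 10th and 90th percentile, and it fell with level: the median SD was 0.363 at levels of 5 to 7 and 0.161 at 13 to 17. A trend of SD on level was therefore fitted over all probe sets, and the SD of each gene was divided by the trend at its level. This ratio had a median of 0.978. By limma with a robust trend and Benjamini-Hochberg adjustment no probe set had a spread above the trend (0 of 24128, 0.0%). The lowest adjusted p was 0.468, and 1607 probe sets had an unadjusted p below 0.05. When array medians were first set equal, 15 probe sets passed, with adjusted p between 0.0276 and 0.0404 by limma, and among genes with a mean of at least 5 these were 4: HP, BOLA, BOLA-N and SYT4. The ratio is thus given as a description of these 8 animals. An SD of at least 3 times the trend was found in 129 of 5859 genes (2.2%), which were chosen after their values were seen, and in 30 genes it was at least 5 times. The limit cut through a continuous range, with STAT3, CXCL10 and STMN1 at 3.01 just inside it and BHMT and HSPA1A at 3.00 (below 3 before rounding) and TSKU at 2.99 just outside.

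**Figure D3:**
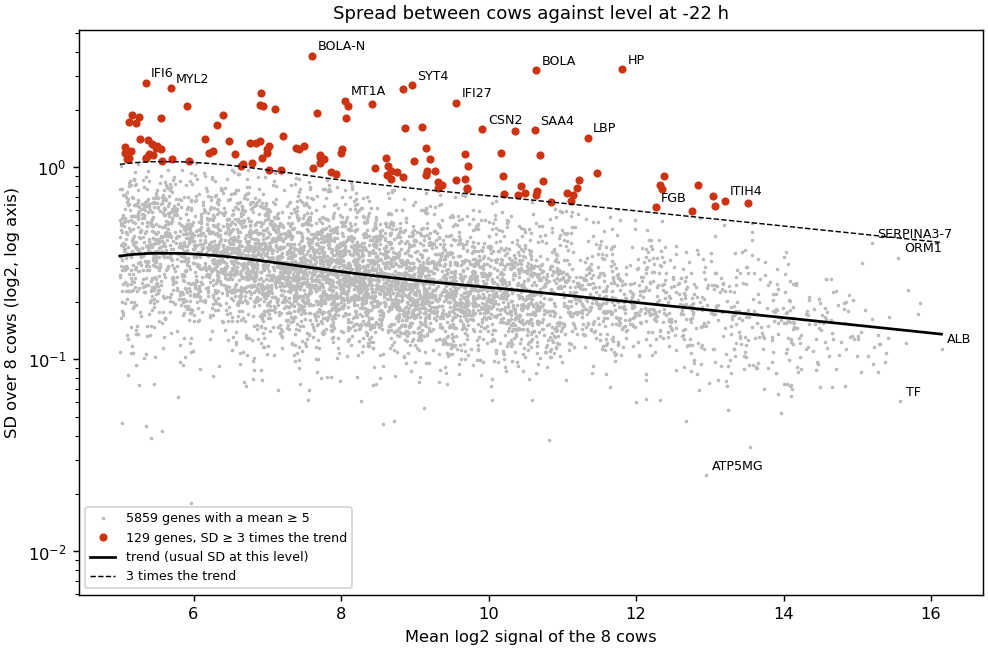
SD over the 8 cows against mean log2 signal for genes with a mean of at least 5, with the fitted trend and the line at 3 times the trend. The 129 genes above that line are marked, and HP lies farthest above the trend with a ratio of 16.1 at a mean of 11.81.

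The wide spreads were not shared evenly among the cows. Among the 129 genes the cow farthest from the median was cow 1 in 48 (28 above the median and 20 below), cow 3 in 24 (16 above and 8 below), cow 7 in 15, cow 8 in 12, cow 6 in 11 and the other cows in 4 to 8 each. Over all 5859 genes cow 7 was farthest in 1896 (32.4%) and cow 1 in 1348 (23.0%). The array that stood apart in its controls was therefore the farthest in many genes of ordinary spread, whereas the widest spreads lay more often with cow 1. A gap between the extreme cow and its neighbour past Dixon's critical value occurred in 674 of 5859 genes (11.5%). Of these cow 7 accounted for 370 and cow 1 for 160. Among the 129 genes the gap was past that value in 39. When the array of a gene's farthest cow was left out for all genes and the trend was fitted to the other 7 arrays, 47 of the 129 genes still had an SD of at least 3 times the trend. The ratios given below without a cow are of this kind. When instead every gene lost its own farthest value before the trend was fitted, which lowers the trend as well, 87 of the 129 did.

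Haptoglobin (HP), which binds free haemoglobin, had the largest ratio of the genes with a mean of at least 5. Its log2 values were 15.14, 14.38, 10.80, 13.68, 15.08, 7.33, 7.45 and 10.60 in cows 1 to 8, an SD of 3.24 and 16.1 times the trend. Cows 1 and 5 came close to the levels of the 20 brightest genes, cows 2 and 4 somewhat lower, cows 3 and 8 in the middle and cows 6 and 7 far below. The highest cow exceeded the lowest 224-fold. No single cow set this spread, and without cow 6 the ratio was 14.7.

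**Figure D4:**
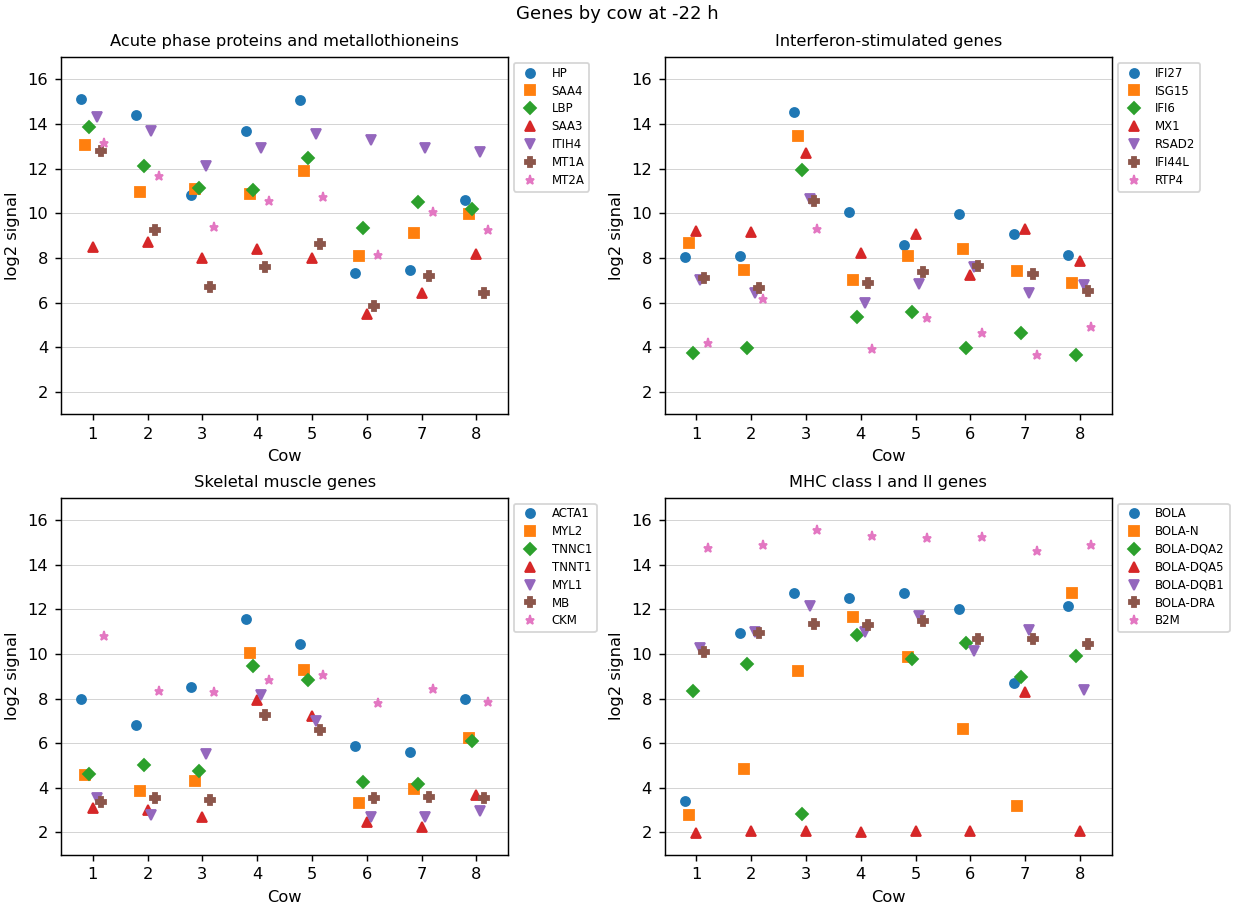
Log2 signal by cow for genes with wide spread, grouped by role. HP spanned 7.33 in cow 6 to 15.14 in cow 1, the interferon-stimulated genes were highest in cow 3, and the muscle genes were highest in cows 4 and 5, except CKM, of which the brightest probe set is drawn.

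A further 6 acute phase genes passed 3 times the trend. SAA4, a serum amyloid A gene, had 13.08 in cow 1, a median of 10.90 and 8.08 in cow 6 (SD 1.57, 6.97 times the trend). The LPS binding protein LBP, which passes LPS to CD14, had 13.86 in cow 1, a median of 11.11 and 9.36 in cow 6 (SD 1.43, 6.79 times). For both, cow 5 came second and cows 6, 7 and 8 were the lowest. Serum amyloid A3 (SAA3), made outside the liver as well, was lower overall. It was 5.50 in cow 6 and 6.44 in cow 7, and 7.99 to 8.73 in the other cows. Its SD was 3.82 times the trend, and 2.51 times without cow 6. The inter-alpha-trypsin inhibitor chain ITIH4 had 14.33 in cow 1, a median of 13.12 and 12.11 in cow 3. Alpha-2-macroglobulin (A2M), a broad protease inhibitor, had 11.48 in cow 2, a median of 10.69 and 9.39 in cow 3. The fibrinogen beta chain (FGB) had 13.28 in cow 1, 12.96 in cow 5 and 11.69 to 12.69 in the other cows.

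These were 7 of the 22 acute phase genes with a mean of at least 5 (31.8%, beside 2.2% of all genes), and the median ratio of the 22 was 1.59, against 0.978 over all genes. Cow 1 was the highest in 13 of the 22 (59.1%, beside 27.5% of all genes) and cow 6 the lowest in 8 (36.4%, beside 6.61%). Cow 7 was the lowest in 7 (31.8%), no more often than over all genes (36.1%). The mean deviation of the members from their medians over cows was 0.60 in cow 1, 0.37 in cow 5 and 0.27 in cow 2, and -0.64 in cow 6 and -0.65 in cow 7. With array medians set equal, that of cow 7 was -0.47. Of the other 15 members SERPINA3-7 (2.73) and ORM1 (2.37) had the largest ratios. C-reactive protein (CRP), which in cattle is a weak acute phase protein, was 14.11 to 14.71 with an SD of 0.20. FGG, C3, SERPINA1 and TF had ratios of 1.41, 1.24, 0.59 and 0.42. TF was on this list of positive acute phase proteins although it is known as a negative one in many species. The cytokines TNF, IL6, IL10 and IL1B stayed below 5 in all cows, with 2.26 to 2.34 for TNF, 2.44 to 2.70 for IL6, 2.53 to 2.67 for IL10 and 3.58 to 4.52 for IL1B.

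Metallothioneins bind zinc and copper and are induced by metals, glucocorticoids and interleukin 6. MT1A was 12.81 in cow 1, 9.24 in cow 2 and 5.84 to 8.64 in the other cows, with cow 6 the lowest (SD 2.23, 7.82 times the trend). MT2A was 13.16 in cow 1, 11.65 in cow 2 and 8.15 to 10.72 in the others (6.75 times). LOC613358, listed in RefSeq with the synonym MT1E, was 10.63 in cow 1, 9.85 in cow 2 and 5.03 in cow 6 (6.33 times). All had cow 1 at the top, cow 2 second and cow 6 at the bottom. Of the 6 metallothionein and zinc transporter genes on the list 2 passed 3 times the trend (33.3%, beside 2.2% of all genes), LOC613358 not being on it. Without cow 1 the ratio of MT1A was 4.19. SLC39A14, the zinc importer of hepatocytes known to be induced in the acute phase, was highest in cow 1 too, at 14.48, against 13.37 to 13.85 in the other cows.

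Cow 1 differed in many further genes. Several genes of the early stress response were highest there. The stress gene GADD45B was 9.46 in cow 1 and 5.11 to 6.56 in the other cows. CEBPB, a transcription factor of acute phase genes, was 8.32 in cow 1, against 4.00 to 6.05. The kinase PIM1, a known STAT target, was 9.90, against 5.64 to 6.99. SOCS3, the feedback inhibitor of interleukin 6 signalling, was 6.12 in cow 1 and 2.49 to 3.35 in the others, near the low end of the scale. STAT3 itself, the transcription factor of that pathway, was 12.23, against 9.98 to 11.09. The interleukin 1 receptor IL1R1 was 12.66, against 10.36 to 11.51, and the glucocorticoid-induced kinase SGK1 12.33, against 10.05 to 10.64. By the brightest probe set of each of these 7 genes, cow 1 lay above all other cows. Another probe set of STAT3 was 7.47 in cow 5, 7.22 in cow 1 and 7.01 in cow 4, against 3.18 to 6.65 in the others. Of 16 immediate early genes with a mean of at least 5, 3 passed 3 times the trend (18.8%, beside 2.2% of all genes). Cow 1 was the highest in 11 (68.8%, beside 27.5%) and the lowest in 3 (18.8%, beside 13.5%). Without cow 1 the ratio of GADD45B was 1.32 rather than 3.98, and those of PIM1, SGK1, IL1R1, STAT3 and CEBPB lay between 1.05 and 2.09. That of SOCS3, whose mean was below 5, was 5.57 rather than 9.24.

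Chaperones of the endoplasmic reticulum, which fold secreted proteins, were also highest in cow 1. HSPA5 was 14.33 there, against 12.09 to 13.29 in the other cows, and HYOU1 was 9.15, against 5.87 to 7.25. MANF (12.69, against 10.06 to 10.99) and CRELD2 (10.38, against 6.83 to 7.99), both known targets of the unfolded protein response, lay apart in the same way. Without cow 1 the ratios of these 4 genes were 2.26 for HSPA5, 1.49 for HYOU1, 1.60 for MANF and 1.54 for CRELD2. Calreticulin (CALR) was 13.26 in cow 1 but overlapped, with 13.17 in cow 5 and 11.11 in cow 8. Of 21 heat shock and chaperone genes 4 passed 3 times the trend (19.0%, beside 2.2% of all genes), and cow 1 was the highest in 15 (71.4%, beside 27.5%). No proteasome gene passed it (0 of 26), yet cow 1 was the highest in 19 of the 26 (73.1%, beside 27.5% of all genes), with a mean deviation of 0.34 from the medians over cows. The antioxidant enzyme GPX3, a secreted glutathione peroxidase, was 9.36 in cow 1 and 4.21 to 4.92 in the others. Its ratio was 4.94, and 0.91 without cow 1. With every other cow below 5, GPX3 reached a mean of 5 only through cow 1. SGPL1, which breaks down sphingosine phosphate, was 12.19 in cow 1, against 9.07 to 9.65, and the chemokine GRO1 was 11.78, against 9.56 to 10.47. Their ratios without cow 1 were 1.01 and 1.73. GRO1 was not typical of its list. Of 11 cytokine and chemokine genes with a mean of at least 5, cow 1 was the lowest in 7 (63.6%, beside 13.5% of all genes) and the highest in 3. Their mean deviation in cow 1 was -0.63, and 3 of the 11 passed 3 times the trend (27.3%, beside 2.2% of all genes).

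Other genes were low in cow 1. GSTO1, a glutathione transferase, was 3.23 there and 7.58 to 9.88 in the other cows, an SD of 6.48 times the trend and 2.93 times without cow 1. PLEK, a protein of platelets and leukocytes, was 4.66, against 7.06 to 8.96. The chemokine CCL14 was 3.14 in cow 1 and 3.86 in cow 6, against 6.84 to 8.27 in the others. PDK4, the kinase that shuts off glucose oxidation in fasting, was 7.35, against 8.70 to 10.21. THRSP, a lipogenic gene responsive to thyroid hormone, was 8.74, against 10.02 to 11.39. CYP7A1, which makes the first and limiting step from cholesterol to bile acids, was 12.22, against 12.89 to 13.85. For GSTO1, PLEK, PDK4, THRSP and CYP7A1 cow 1 was below every other cow. Without cow 1 the ratio was 2.61 for PDK4, 2.10 for THRSP and 2.16 for PLEK. The lower Kupffer and stellate cell markers of cow 1 stand beside these values, and their part was not tested.

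Interferon-stimulated genes, an antiviral programme that type I interferon switches on, were high in cow 3. IFI27 was 14.54 in cow 3, against 8.02 to 10.05 in the other cows (8.81 times the trend). ISG15, a ubiquitin-like protein, was 13.44, against 6.88 to 8.68 (7.78 times). IFI6 was 11.95, against 3.63 to 5.56 (7.77 times), so cow 3 exceeded the lowest cow 320-fold. The GTPase MX1, an inhibitor of RNA viruses, was 12.68, against 7.24 to 9.31. In all 4 genes cow 3 was above every other cow. Without cow 3 the ratios were 3.31 for IFI27, 2.33 for ISG15, 2.58 for IFI6 and 3.00 for MX1, so IFI27 still passed 3 times the trend among the other cows.

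The pattern held over the list. Of 19 interferon-stimulated genes with a mean of at least 5, cow 3 was the highest in 17 (89.5%, beside 14.4% of all genes). Past 3 times the trend were 11 (57.9%, beside 2.2% of all genes). Above 5 in all 8 cows were 18 of the 19, so these met the limit on level without cow 3. IFI6 and RTP4, not among these 18, had medians of 4.30 and 4.77 and reached a mean of 5 only through cow 3. They cannot both be on the list, and a member of this kind owes its place among the 19 to cow 3. The mean deviation of the list was 2.75 in cow 3 and -0.58 to 0.28 in the others. The antiviral enzyme RSAD2 was 10.63 in cow 3 and 5.99 to 7.59 in the others, RTP4 9.29 and 3.65 to 6.17, IFI44L 10.55 and 6.51 to 7.65, and the ISG15 protease USP18 10.77 and 7.62 to 8.70. IFI44 was 9.99 in cow 3 and 5.81 to 7.17 in the others. Without cow 3 the ratios of RSAD2, RTP4, IFI44L, USP18 and IFI44 lay between 1.22 and 2.65. The 3 other probe sets of IFI44 were highest in cow 3 as well, at 10.11, 9.01 and 9.66. IFIT5, known to bind viral RNA, was 12.28 in cow 3 and at most 11.06 in the others. The chemokine CXCL10 overlapped more, with 8.33 in cow 3, 7.86 in cow 5 and 5.14 in cow 1. Below a mean of 5, ISG12(B) was 9.23 in cow 3 and 2.33 to 2.42 in the others, and MX2 was 4.42, against 2.00 to 2.07. OAS1X went another way, with 5.63 in cow 1 and 2.62 in cow 3. At the other end cow 8 was the lowest in 10 of the 19 (52.6%, beside 12.5% of all genes).

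Many genes of antigen presentation were highest in the same cow. Cow 3 was the highest in 10 of 15 MHC and antigen processing genes (66.7%, beside 14.4% of all genes), and cow 1 the lowest in 6 (40.0%, beside 13.5%). By the mean deviation of the list cow 5 came first with 0.45, before cow 3 with 0.32 and cow 4 with 0.27, and cow 1 had -1.05. The immunoproteasome subunits PSMB8 and PSMB9 were 9.35 and 9.40 in cow 3, against 7.29 to 8.74 and 6.82 to 8.13 in the other cows. The peptide transporter TAP1 was 7.55, against 5.60 to 7.01, and beta-2-microglobulin (B2M), the light chain of class I molecules, 15.57, against 14.63 to 15.29. The T and natural killer cell markers had a mean deviation of 0.80 in cow 3 and the endothelial markers one of -0.56. How these bear on the other genes of cow 3 was not tested. HP, by contrast, was in the middle in cow 3, and A2M and ITIH4 were lowest there.

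The MHC genes themselves had some of the widest spreads. They are highly polymorphic in cattle, and haplotypes differ in which class I and class II genes they carry, so the match of a probe to an allele and the level of the transcript cannot be told apart here. BOLA, a class I gene, had log2 values of 3.42, 10.93, 12.72, 12.52, 12.71, 12.00, 8.71 and 12.14 in cows 1 to 8 (14.3 times the trend). Cow 1 was at the low end of the scale and cow 7 lay between it and the others. Without cow 1 the ratio was 7.50. BOLA-N, another class I gene, had 2.77, 4.82, 9.24, 11.63, 9.84, 6.64, 3.20 and 12.72 in cows 1 to 8 (12.7 times), the widest range among genes with a mean of at least 5, 984-fold between cows 8 and 1. Here the values were spread evenly, with cows 1 and 7 near the low end.

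Class II genes had other cows at the ends. BOLA-DQA2, an antigen-binding alpha chain, was 2.81 in cow 3, against 8.32 to 10.87 in the other cows (9.77 times, and 3.51 times without cow 3). Of its other 2 probe sets, the one with signal was lowest in cow 3 too, at 5.81, and the other was below 2 in all cows. BOLA-DQB1, the partner beta chain, was 12.17 in cow 3 by its brightest probe set and 8.37 in cow 8 (5.19 times, 3.37 times without cow 8). Of its other probe sets 3 were at 2.29, 2.33 and 2.36 in cow 3 and 6.85 to 9.99 elsewhere, and 1 was low in cows 4, 6 and 8, at 2.98, 2.45 and 2.46, and 8.06 to 10.52 in the rest. Probe sets of one gene thus put different cows lowest. BOLA-DQA5 gave signal in cow 7 only, 8.31 against 1.99 to 2.06, and BOLA-DQB likewise, 6.48 against 2.11 to 2.17. The less variable BOLA-DRA was 10.07 to 11.46 (2.21 times). Of the 15 genes 3 passed 3 times the trend (20.0%, beside 2.2% of all genes), BOLA-N not being on the list.

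Genes of striated muscle were high in cows 4 and 5. Skeletal actin (ACTA1) was 11.56 in cow 4 and 10.43 in cow 5, against 5.58 to 8.52 in the other cows. The myosin light chain MYL2 was 10.03 and 9.27, against 3.32 to 6.22, and the slow troponin TNNC1 9.47 and 8.84, against 4.19 to 6.11. In each, cow 4 was first, cow 5 second and there was no overlap with the rest. Below a mean of 5 the same order held for TNNT1 (7.93 and 7.20, against 2.22 to 3.68), MYL1 (8.16 and 7.01, against 2.67 to 5.52) and myoglobin MB (7.25 and 6.59, against 3.36 to 3.57). Of 7 muscle markers with a mean of at least 5, 4 passed 3 times the trend (57.1%, beside 2.2% of all genes), among them ACTA1, MYL2 and TNNC1. MYL2 and TNNC1 had medians of 4.4 and 4.9 and reached a mean of 5 only through cows 4 and 5. Their place in this count was thus set by the cows in which they were high. The fourth, the creatine kinase CKM, was highest in cow 1 at 10.80, against 7.82 to 9.06 in the others, and its ratio without cow 1 was 1.78. That was its brightest probe set. The other probe set of CKM followed the muscle order, with 6.12 in cow 4 and 5.64 in cow 5, against 2.28 to 2.48 in the other cows. MYH7 was steady at 8.98 to 9.78. Immunoglobulin mu (IGHM), of B cells, also had its highest values in cows 4 and 5, at 11.77 and 11.10, with 8.25 in cow 8. How the muscle signal bears on other genes of cows 4 and 5 was not tested.

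Several genes stood apart in a single cow or a few cows. SYT4, a vesicle protein known from nerve cells, was 2.45 in cow 2, against 8.92 to 10.61 in the other cows (10.4 times the trend, 2.47 times without cow 2), and its other probe set was 3.12, against 4.55 to 5.80. Beta-casein (CSN2), a milk protein, was 13.81 in cow 7, against 9.16 to 9.48 (6.60 times, 0.57 times without cow 7). These values rest on 1 probe set of a kind marked as able to bind other transcripts as well. The other probe sets of CSN2 lay at 2.75 to 3.69 and 1.94 to 2.02, and CSN1S1, CSN1S2, CSN3 and LALBA, further milk proteins, did not exceed 2.63 in any cow. The pancreatic trypsin inhibitor PTI was 9.79 in cow 7, against 4.15 to 6.05 (5.05 times, 2.08 times without cow 7). It reached a mean of 5 only through cow 7. LOC404103, listed in RefSeq with the synonym BPTI, was 11.36 in cow 7, against 8.74 to 9.20, and the mast cell tryptase TPSB2 5.06, against 3.25 to 3.90. Without cow 7 the ratio of LOC404103 was 0.73 rather than 3.34, and that of TPSB2 1.11 rather than 2.02. Trypsinogen PRSS2 was 9.05 in cow 5 and 2.25 to 2.36 in the others. SFRP2, a secreted Wnt inhibitor, was high in cows 2, 4 and 5 (8.03, 7.18 and 9.00) and 2.33 to 2.49 in the rest.

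A value below 4 in 1 cow with at least 7 in all others was found in 4 genes, BOLA, BOLA-DQA2, GSTO1 and SYT4. The reverse, at least 7 in 1 cow and below 4 in the others, was found in 3, BOLA-DQA5, ISG12(B) and PRSS2. Further genes were low in a single cow or a few cows. DDO, which oxidises D-aspartate, was 2.95 in cow 7, 4.91 in cow 6 and 6.51 to 8.89 in the others. The insulin receptor INSR was 2.57 in cow 7, against 5.38 to 6.67, and PIK3CA, a kinase subunit downstream of it, 4.15, against 6.71 to 7.38. Without cow 7 their ratios were 1.52 and 0.92, below 3 in both, and that of DDO was 5.71. These INSR and PIK3CA values are from the brightest probe sets. Another INSR probe set had 3.59 in cow 7, 4.37 in cow 8, 4.43 in cow 6 and 5.51 to 6.72 in the rest. The other probe set of PIK3CA, with a mean below 5, had 4.32 in cow 7, against 4.62 to 5.19, and a ratio of 0.75. IL20RA, a cytokine receptor, was 2.40 in cow 3, against 6.07 to 7.85, with a ratio of 1.73 without cow 3. The cadherin CDHR5 was 3.58 in cow 4 and 4.85 in cow 7, against 6.22 to 8.81.

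In metabolic lists a few single genes passed the limit. IGFBP1, a hepatic binding protein of insulin-like growth factors that insulin represses, was 5.71 in cow 5, had a median of 8.18 and reached 9.32 in cow 3 (4.17 times the trend). The growth hormone receptor GHR was 12.29 in cow 5 and 10.04 in cow 7 (3.37 times). Without cow 5 the ratios were 2.81 for IGFBP1 and 2.66 for GHR. Cow 5 was thus at opposite ends for these genes of the growth hormone axis. Of that list 3 of 13 passed 3 times the trend (23.1%, beside 2.2% of all genes), INSR being the third. FBP2, the muscle form of fructose bisphosphatase, was 7.93 in cow 1, 7.22 in cow 7 and 2.73 in cow 3. Its median was 4.94, so it reached a mean of 5 only through the cows in which it was high. With IGFBP1 it made up the 2 of 27 genes of gluconeogenesis and glycolysis that passed (7.41%, beside 2.2% of all genes). PCK1, the key enzyme of gluconeogenesis, was steady at 14.39 to 14.82. Of 33 drug metabolism genes 2 passed (6.06%, beside 2.2% of all genes), CYP2B6 and GSTA4. CYP2B6 was 9.49 in cow 4, against 10.69 to 12.31 in the others (4.04 times, and 2.51 times without cow 4). GSTA4 was 11.56 in cow 6, against 12.43 to 13.41 (1.94 times without cow 6). KMO, an enzyme of tryptophan breakdown, was 10.90 in cow 8 and 7.54 in cow 3, with cows 2 and 7 close to cow 8. Of 16 coagulation genes FGB alone passed (6.25%, beside 2.2% of all genes), and cow 1 was the highest in 11 (68.8%, beside 27.5%). PDK4 was the only gene of fatty acid oxidation past the limit (1 of 20, 5.0%) and THRSP the only one of lipogenesis (1 of 17, 5.88%), beside 2.2% of all genes. In lists of this size a count of 1 or 2 is near that share.

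In cow 8 some genes of bile duct cells were high. The keratin KRT19 was 5.27 there and at most 2.94 in the others, and the adhesion protein EPCAM was 10.60 in cow 8, 10.19 in cow 3 and 7.83 in cow 1. In cow 6 DLK1, a gene of fetal liver, was 7.72, against 3.88 to 6.13 in the others, and the Wnt inhibitor SFRP1 7.99, against 4.96 to 6.73, with ratios of 2.09 and 2.03 without cow 6. CHIA, the acidic chitinase, was bright in all cows, with 13.43 in cow 8 and 10.93 in cow 7 (4.72 times the trend, 4.57 times without cow 7).

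In several lists no gene passed the limit. Among those named next, the median ratio was below the 0.978 of all genes only for ribosomal proteins, oxidative phosphorylation and carrier proteins. No gene passed 3 times the trend among 60 cytosolic ribosomal proteins (median ratio 0.649), 66 genes of oxidative phosphorylation (0.766), 17 carrier plasma proteins (0.903), 14 apolipoproteins (1.01), 27 complement genes and collectins (1.31), 17 genes of cholesterol synthesis (1.16), 11 of bile acid synthesis and transport (1.18) or 12 liver transcription factors (1.23). With 2.2% of all genes past the limit, a count of 0 in lists of 11 to 66 genes was near the background. Variation was not nil in them. CYP7A1 had a ratio of 2.83 and apolipoprotein A-I (APOA1) was 11.21 to 12.90. The steadiest gene with a mean of at least 8 was ATP5MG, a subunit of ATP synthase, at 12.91 to 12.98 (SD 0.02, 0.14 times the trend). The ribosomal protein RPL3 was 13.50 to 13.61.

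**Figure D5:**
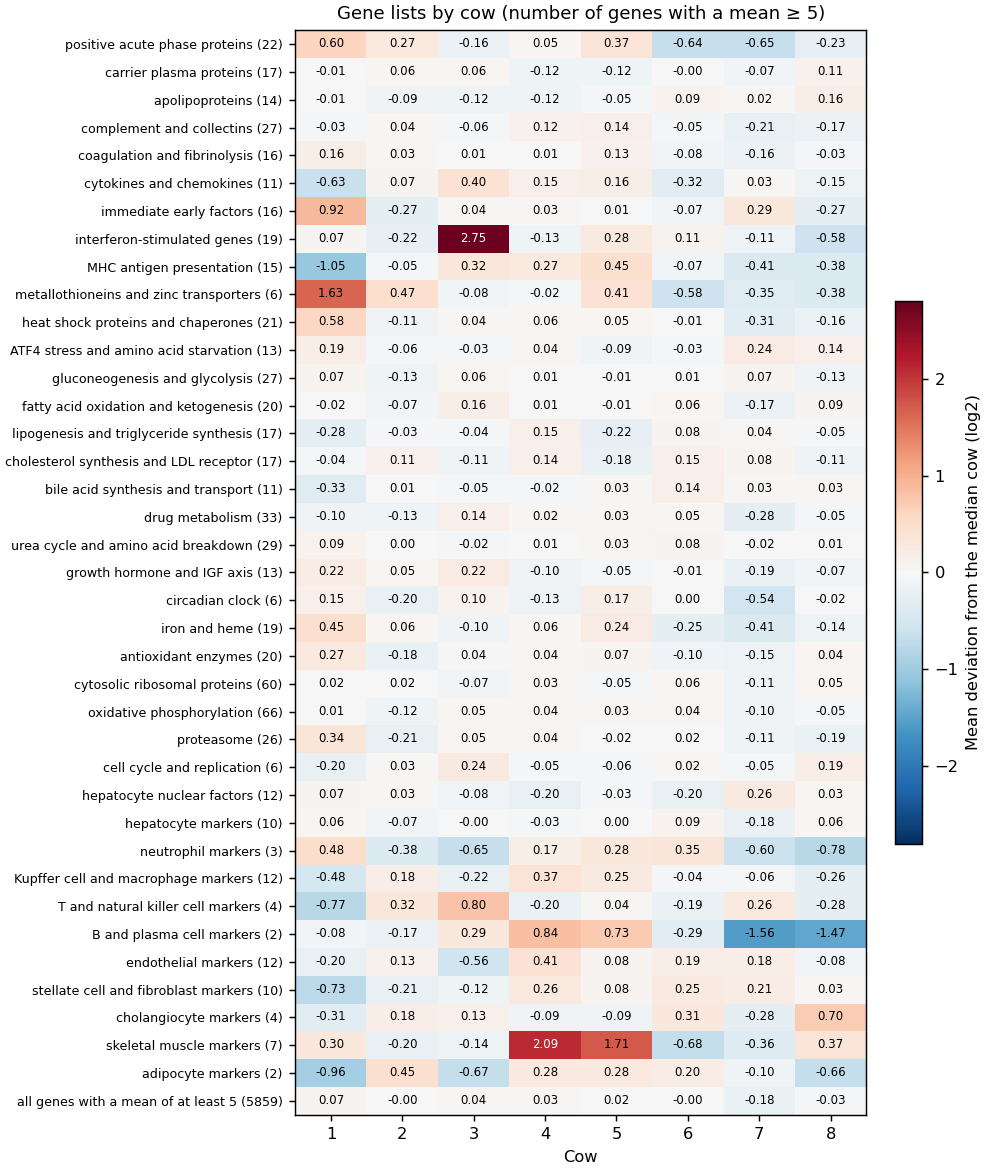
Mean deviation of each gene list from its members' medians over the 8 cows, in log2 units, by cow. Only members with a mean of at least 5 were used. Interferon-stimulated genes stood 2.75 above in cow 3, metallothioneins and zinc transporters 1.63 above in cow 1 and muscle markers 2.09 and 1.71 above in cows 4 and 5. The muscle values include MYL2 and TNNC1, which reached a mean of 5 only through cows 4 and 5, so these deviations were partly set by that choice.

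Where a gene had another readable probe set, it mostly showed the wide spread too. The 129 genes had 86 further probe sets, of 42 genes, and the rest of the 129 had none to compare. Of the 28 with a mean of at least 5, 23 had an SD of at least 3 times the trend, beside 2.2% of all genes by their brightest probe set. In 18 of the 28 the same cow was farthest on the same side, a count for which no share over all genes was computed. Several of the 28 belong to the same gene, as in BOLA-DQB1, IFI44 and USP18, so they are not independent.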

How the data were processed

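The authors normalised the scanned arrays by GCRMA in R, with background corrected by probe sequence, and deposited log2 intensities per probe set. No replicates were pooled. The genome build of the array design was not given in the sources used here. Values were used as deposited, since array data carry no read depth and the number of arrays limits the precision. Probe sets were named through the platform annotation: 13318 named 1 gene, 86 several and 10724 none, and 112 were controls. A gene was read from its brightest probe set.

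With limma 3.58.1 in R 4.3.3, an intercept was fitted to the 8 arrays and variances were set against a robust intensity trend. Upper-tail p-values were adjusted by Benjamini-Hochberg over 24128 probe sets, at a threshold of 0.05. The procedure was tested on simulated data whose variances scattered less around the trend than those of these arrays. The fit used here had 2.73 prior degrees of freedom, a wide scatter, so that test does not show how often wide spreads would be called here. Summaries and plots used Python 3.11.15, pandas 2.3.3 and matplotlib 3.10.9. Genes and lists were chosen with earlier results of these data known. Named genes were the 20 brightest, the 30 with the largest ratio of SD to trend, the brightest and the most variable members of each of 28 process lists and 12 marker lists, the 10 steadiest, and HP, SAA3, ORM1, CRP, TNF, IL1B, IL6 and IL10. Calls were to limit the choice of variable genes. None was made, so all genes with a mean of at least 5 were ranked, and those past 3 times the trend, added after the values were seen, could be named too. Members and markers named beside them from the lists or from related probe sets were also chosen after their values were seen. Alternatives were another limit on level, median centring, other trends, averaging all probe sets of a gene, the median absolute deviation and leaving out each cow. Promoter motifs were not analysed here.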

Additional observations from a re-analysis of the deposited data

Results flagged for a closer look

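A set of 122 named genes was screened: the brightest, the most variable, the steadiest, the leading members of each list and those set by name. In 27 of the 122 the cow at one end lay farther from its neighbour than Dixon's critical value of 0.526 for 8 samples allows. The gap divided by the whole range is given here as the gap ratio. Other genes named in the text were not screened here, and some were past that value too, such as SGPL1 (0.813) and PIK3CA (0.794). Of the 27, GPX3, IFI6, RTP4 and PTI reached a mean of 5 only through the cow in which they were high. By chance about 1 in 20 genes would be past that value, and 11.5% of all genes with a mean of at least 5 were.

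Cow 1 was high in GPX3 (gap ratio 0.863), GADD45B (0.666), CEBPD (0.637; 12.17 against 11.26 in the nearest cow), an acute phase transcription factor, and SLC39A14 (0.564). It was low in GSTO1 (0.654) and BOLA (0.569). Cow 2 was low in SYT4 (0.793).

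Cow 3 was high in the interferon-stimulated genes IFI6 (0.767), ISG15 (0.726), IFI27 (0.688), MX1 (0.621), IFIT5 (0.605) and RTP4 (0.553), and in LOC515676 (0.598; 11.63 against 7.28 in the nearest cow), which the annotation used here does not name further. It was low in BOLA-DQA2 (0.684). In the steady gene RPL3 cow 4 was high by a ratio of 0.588, but the values were only 13.61 and 13.55.

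Cow 7 was high in CSN2 (0.930) and PTI (0.663). It was low in 9 of the brightest genes: ALB (0.788; 15.87 against 16.14 in the nearest cow), FGG (0.707), CDK5R1 (0.663), C3 (0.641), SERPINA1 (0.619), CFB (0.610), TPT1 (0.607), EEF1A1 (0.556) and APOA2 (0.531). The spike controls of this array were the highest of the 8, and their part in these gaps was not tested.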

How the results depend on the processing

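The share of probe sets with signal was 51.9% at a limit of log2 4 and 39.1% at log2 6, and with 1 cow left out it was 45.7 to 46.0%. The count of probe sets with a spread above the trend was 0 in the other fits and with any cow left out, but 15 after median centring (4 genes with a mean of at least 5). The count of genes with an SD of at least 3 times the trend was 129. It was 121 after centring (118 of them among the 129), 169 when all probe sets of a gene were averaged (103 shared), 175 with a trend that was not robust, and 110 without cow 3 to 183 without cow 7. Of the 129, 47 kept such an SD without the array of their farthest cow, a count added after the data were seen. The cause of these shifts was not tested. Of 1342 alternative values of single genes, 1295 kept their side of the threshold and moved little, 4 passed it after centring (HP, BOLA, BOLA-N and SYT4) and 43 moved, all under the median absolute deviation, which gives a lone cow little weight. No paired analysis was possible because a single hour was described and no groups were compared. Centring turned the sign of 8 of 169 list deviations of at least 0.1, all in cow 7. With 1 array per cow the technical share of the spread could not be measured.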
